A study of Caenorhabditis elegans with 2 samples.

Results

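The genes described here are 10 core genes of TOR and AMPK nutrient sensing in Caenorhabditis elegans: let-363, daf-15, mlst-8, rict-1, rheb-1, raga-1, ragc-1, rsks-1, aak-1 and aak-2. They were chosen by name, and all 10 were present in the WBcel235 annotation, among 19973 protein-coding genes in all. For each gene, every deposited region was taken whose summit (the base of strongest enrichment) lay between 1000 bp upstream of the gene and its 3′ end, a span called the gene window here. The study mapped where SWSN-7, an accessory subunit of the SWI/SNF chromatin remodelling complex, sits on chromatin, by immunoprecipitation with an anti-GFP antibody and sequencing. The 2 biological replicates formed the only group, so no conditions were compared. Both came from whole hermaphrodite larvae of strain OP512, which carries the unc-119(tm4063) allele and the integrated transgene wgIs512, and which stably makes SWSN-7 with GFP-FLAG at its C terminus. The animals were at the first larval stage (L1), 6 hours after a synchronization in which hatchlings from bleaching were starved. The sources used here do not say whether untagged SWSN-7 was also present.

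TOR is a protein kinase that couples growth to nutrients and works in a pair of complexes. TORC1 (TOR with Raptor) is switched on at the lysosome by Rheb and Rag GTPases when amino acids are plentiful and promotes translation through S6 kinase, whereas TORC2 (TOR with Rictor) acts mainly through AGC kinases on metabolism. AMPK is the opposing kinase, activated when energy is low, and in C. elegans larvae that hatch without food it is among the factors needed to survive the resulting arrest.

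SWSN-7 enrichment was found at 6 of the 10 genes, at most of them near a 5′ end, and was strongest at aak-2, rheb-1 and rict-1. The strongest aak-2 region was intronic and away from starts, and those of rheb-1 and rict-1 were nearer to a neighbour's 5′ end. The list used for these calls holds the regions that passed the authors' irreproducible discovery rate (IDR) threshold, which keeps regions ranked reproducibly by the replicates. It held 4087 regions, and its signal value, the peak caller's own measure of enrichment, ran between 88.4 and 5142.4 with a median of 183.3. An IDR region fell in the gene window of let-363, daf-15, rict-1, rheb-1, ragc-1 and aak-2, which is 60.0% of the members against 17.5% of all protein-coding genes (3501 of 19973). The members' windows were also longer, with a median of 6.63 kb against 3.03 kb over all genes, and a longer window can hold more regions. Per 100 kb of window there were 8.64 IDR regions over the members, 7 regions in 81.1 kb, against 4.81 over all genes. An entry was said to be at a 5′ end when its summit lay no more than 1000 bp before or 500 bp past the annotated start of a protein-coding transcript. By that rule 5 of the 10 members had an IDR region at a 5′ end (daf-15, rict-1, rheb-1, ragc-1 and aak-2), against 15.9% of all genes. With each region given to its nearest 5′ end alone, daf-15, ragc-1 and aak-2 kept theirs, which is 3 of 10 against 11.9% of all genes. These are counts over named genes chosen with earlier results known, and no test was made of them.

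**Figure D1:**
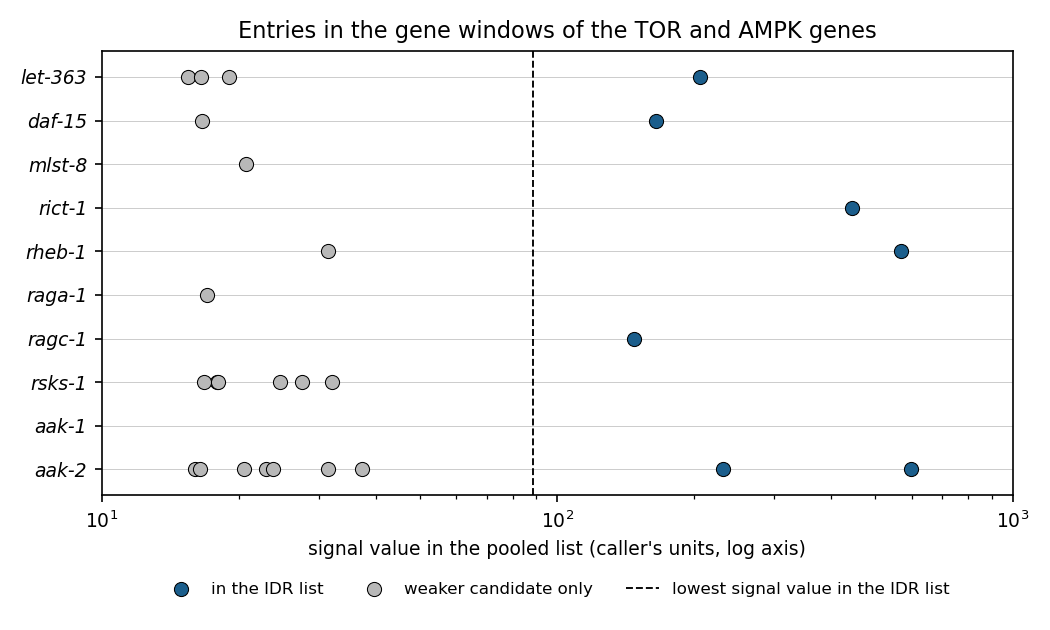
Signal value of every entry of the pooled list in the gene window of each TOR and AMPK gene, on a log axis in the caller's units. Filled blue points are in the IDR list, grey points are weaker candidates, and the dashed line marks the lowest IDR signal value of 88.4. The blue points lie between 147.7 and 597.2 and the grey ones between 15.5 and 37.3, with nothing between them.

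The plot of signal values shows that the members' entries formed separate strong and weak sets. The weaker ones come from the pooled candidate list, which the authors filled with 30000 peaks and background regions for the IDR step, so a presence in it is not a call. The pooled list had an entry in the windows of 9 of 10 members against 53.0% of all genes. Per 100 kb of window this was 33.3 pooled entries over the members against 29.4 over all genes, a much smaller gap than that of the shares. Replicate 2's own list had one in 9 of 10 against 55.4% of all genes, and replicate 1's list in 8 of 10 against 54.3%. Outside the IDR list, 20 pooled entries lay in the windows of 7 members, with a median signal value of 19.8 and −log10 q-values between 0.18 and 1.78. All 7 IDR entries stood at 4.09, the ceiling of that column. So did the IDR list as a whole, so the value does not set these 7 apart. Of the 20 weaker summits, 9 were in coding exons, 6 in introns, 3 between genes and 2 in UTRs.

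The DNA around the reproducible summits is printed for 5 genes, because the stretches differ in base composition and in the short motifs they hold. Each is 300 bases around a summit, on the coding strand of the named gene from 5′ to 3′, read from the WBcel235 (ce11) genome. The called regions at these summits were between 104 and 365 bp wide, so a printed stretch can reach beyond its region. Capitals mark exact matches on either strand to 5 motifs: the forkhead core GTAAACA, the E-box CACGTG, the GATA site TGATAA, the GA repeat GAGAGA and a run of 7 T. The daf-15 stretch is chrIV:9386079-9386378 on the plus strand, and the rict-1 stretch is chrII:13117167-13117466 on the minus strand. The rheb-1 stretch is chrIII:9456171-9456470 on the minus strand, and the ragc-1 stretch is chrIV:11604938-11605237 on the minus strand. The pair from aak-2 are chrX:16796874-16797173 and chrX:16799119-16799418 on the plus strand.
daf-15: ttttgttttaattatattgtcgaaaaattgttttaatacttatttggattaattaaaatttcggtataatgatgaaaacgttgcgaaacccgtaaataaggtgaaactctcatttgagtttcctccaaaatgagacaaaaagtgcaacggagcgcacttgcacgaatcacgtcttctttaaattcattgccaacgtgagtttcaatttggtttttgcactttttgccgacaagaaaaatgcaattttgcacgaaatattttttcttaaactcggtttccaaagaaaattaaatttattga
rict-1: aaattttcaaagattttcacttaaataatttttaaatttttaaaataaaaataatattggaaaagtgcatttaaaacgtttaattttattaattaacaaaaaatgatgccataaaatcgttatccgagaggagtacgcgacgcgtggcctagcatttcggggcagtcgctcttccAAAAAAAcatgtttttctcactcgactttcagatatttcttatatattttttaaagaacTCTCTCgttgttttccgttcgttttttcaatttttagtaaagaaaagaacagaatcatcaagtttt
rheb-1: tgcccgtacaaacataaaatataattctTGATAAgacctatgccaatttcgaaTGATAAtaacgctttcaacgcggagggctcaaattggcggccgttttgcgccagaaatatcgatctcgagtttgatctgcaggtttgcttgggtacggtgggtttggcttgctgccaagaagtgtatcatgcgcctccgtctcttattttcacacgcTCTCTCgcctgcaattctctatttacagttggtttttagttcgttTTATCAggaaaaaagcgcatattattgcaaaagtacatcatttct
ragc-1: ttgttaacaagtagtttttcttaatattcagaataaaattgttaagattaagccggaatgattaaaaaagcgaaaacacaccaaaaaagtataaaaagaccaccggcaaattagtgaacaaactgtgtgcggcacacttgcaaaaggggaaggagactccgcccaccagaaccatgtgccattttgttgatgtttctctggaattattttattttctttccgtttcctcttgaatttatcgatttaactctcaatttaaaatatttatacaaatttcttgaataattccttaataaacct
aak-2, stronger region: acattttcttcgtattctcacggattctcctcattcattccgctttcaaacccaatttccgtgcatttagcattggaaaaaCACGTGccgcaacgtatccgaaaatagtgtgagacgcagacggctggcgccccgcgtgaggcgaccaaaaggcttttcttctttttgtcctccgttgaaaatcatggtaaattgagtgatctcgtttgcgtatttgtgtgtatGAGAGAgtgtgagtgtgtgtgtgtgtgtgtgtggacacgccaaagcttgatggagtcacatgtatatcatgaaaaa
aak-2, weaker region: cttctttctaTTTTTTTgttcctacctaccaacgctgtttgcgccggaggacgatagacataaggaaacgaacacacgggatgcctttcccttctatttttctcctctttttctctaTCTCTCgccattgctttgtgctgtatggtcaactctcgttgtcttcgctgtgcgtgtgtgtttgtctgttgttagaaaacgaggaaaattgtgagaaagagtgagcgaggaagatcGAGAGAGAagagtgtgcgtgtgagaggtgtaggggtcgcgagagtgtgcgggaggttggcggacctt

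The GA repeat was the most frequent of the motifs, in 4 of the members' 7 windows (let-363's included), against 51.3% of all 4087 IDR windows of the same length. Counted to the first base of the match, it lay 85 bp downstream of the rict-1 summit, 61 bp downstream of the rheb-1 summit and 74 bp downstream of the stronger aak-2 summit. In the weaker aak-2 window it lay 33 bp upstream of the summit and again at 83 and 85 bp downstream, where 2 matches overlap each other. The downstream pair lay outside the called region, which was 104 bp wide. The E-box occurred once, 69 bp upstream of the stronger aak-2 summit, against 9.2% of all IDR windows. It is the letter sequence bound by HLH-30, the worm TFEB, and by other basic helix-loop-helix factors. TGATAA, the site of intestinal and epidermal GATA factors, was confined among the 7 windows to rheb-1, where it occurred 3 times, at 121 and 96 bp upstream and 106 bp downstream of the summit, against 17.6% of all IDR windows with at least 1. The run of 7 T was in 3 windows against 41.1% of all, and the forkhead core was in none of the 7 against 5.68% of all. The T runs of the let-363 window and of the weaker aak-2 window lay outside the called regions. Searching 100 bp on each side of the summits left the number of member windows with each motif as it was, except for the T run, which was in 2. Of the rheb-1 TGATAA matches, only the one 96 bp upstream lay within that distance. The shares of all IDR windows were then 45.6% for the GA repeat, 7.32% for the E-box and 9.59% for TGATAA. For the T run and the forkhead core they were 24.7% and 4.26%. No motif share among 7 windows stands as more than a description. The windows had a median GC content of 35.0%, against 41.0% over all IDR windows. The rict-1 window was 28.0% GC, lower than all but 1.42% of IDR windows, and the daf-15 window was 30.7%. The stronger and weaker aak-2 windows were 45.0% and 48.0% GC, so the members' windows lay on both sides of the median.

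Among the genes of the TOR complexes, let-363 and daf-15 had an IDR region each, near the end of let-363 and at the start of daf-15, and mlst-8 had none. For let-363 (WBGene00002583, chrI:5245743-5263424, plus strand), which encodes the TOR kinase itself, the IDR region chrI:5261707-5261865 had a signal value of 206.4 and ranked 1816 of 4087. Its signal value was 124.5 in replicate 2 and 92.2 in replicate 1. The summit lay in intron 29 of B0261.2a.1, 16.04 kb from the start of a gene 17.7 kb long, and the nearest 5′ end was that of vep-1, 1914 bp from the summit. let-363 thus entered the count of gene windows but not that of 5′ ends. At its start, 340 bp separate it from mrpl-47, a mitochondrial ribosomal protein gene on the same strand. An IDR region of signal value 258.6 sat 4 bp upstream of mrpl-47 and 1464 bp upstream of let-363, outside the window.

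daf-15 (WBGene00000911, chrIV:9386208-9394979, plus strand) encodes Raptor, the TORC1 scaffold whose loss gives a dauer-like larval arrest. Its IDR region, chrIV:9386103-9386281, had a signal value of 164.5, below the IDR median. Replicate 2 gave it 84.7 and replicate 1 gave it 77.8. The summit lay in a coding exon 21 bp past the 5′ end of C10C5.6c.1 and 221 to 228 bp upstream of the 5′ ends of the 4 other transcripts. Among the members' IDR summits it was the closest to an annotated start, and no other gene's 5′ end was nearer.

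mlst-8 (WBGene00015697, chrI:4735251-4738102, minus strand) encodes LST8, a subunit shared by both complexes. Its window held a single pooled entry with a signal value of 20.7, just upstream of the start. Replicate 2 listed entries of 12.6 and 12.5 in the window and replicate 1 listed none.

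rict-1 (WBGene00009245, chrII:13098239-13116810, minus strand), which encodes Rictor of TORC2, had the third strongest region of the set. The region chrII:13117197-13117441 had a signal value of 443.8 and ranked 634 of 4087. It had 212.4 in replicate 2 and 218.8 in replicate 1, the lowest ratio of replicate 2 to replicate 1 among the members' regions. The summit lay 507 bp upstream of rict-1, in the 672 bp that separate it from gfm-1 on the opposite strand, and gfm-1, which encodes a mitochondrial elongation factor G, was nearer at 166 bp. A shorter rict-1 transcript starts 6574 bp inside the gene, and no IDR or pooled entry lay there.

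Of the small GTPases upstream of TORC1, rheb-1 and ragc-1 had an IDR region in the gap to a divergent neighbour, and raga-1 had none. rheb-1 (WBGene00010038, chrIII:9454163-9456030, minus strand) encodes Rheb, the direct activator of TORC1. The region chrIII:9456156-9456462 had a signal value of 567.7 and ranked 394 of 4087. Its signal value was 324.4 in replicate 2 and 245.3 in replicate 1, and the summits of the replicates were 1 bp apart. The summit sat 291 bp from rheb-1 and 287 bp from spk-1, an SR protein kinase gene on the opposite strand, which is the middle of the 577 bp between them. A nearest-gene rule gives the region to spk-1 by 4 bp in the pooled data, and in replicate 2 the distances were equal. A further IDR region, of signal value 104.3, lay 8 bp past a 5′ end of spk-1 and 1506 bp upstream of rheb-1, outside the window.

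ragc-1 (WBGene00012497, chrIV:11603613-11604933, minus strand) encodes the Rag GTPase of the RagC and RagD type. Its region, chrIV:11605021-11605159, had the lowest signal value of the members' IDR regions, 147.7, and ranked 2505 of 4087. The replicates' own values were 95.5 in replicate 2 and 54.4 in replicate 1, the lowest of the members' regions in replicate 1. The summit lay 155 bp upstream of ragc-1 and 166 bp upstream of Y24F12A.1 on the opposite strand, with 320 bp between the genes. In replicate 1 alone the summit was nearer to Y24F12A.1, at 133 bp. raga-1 (WBGene00006414, chrII:11301359-11302776, plus strand) encodes the partner Rag of the RagA and RagB type. It follows saps-1, a gene for a regulatory subunit of protein phosphatase 6, by 98 bp on the same strand. Its only pooled entry had a signal value of 17.0, near the floor of that list at 14.9, and lay in a coding exon, 343 bp from the annotated 5′ end. Replicate 2 listed 17.9 at the same summit, and replicate 1 listed 7.6, the floor of its own list, 320 bp upstream.

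rsks-1 (WBGene00012929, chrIII:11245120-11252281, plus strand), which encodes the S6 kinase that TORC1 phosphorylates, had 6 weak pooled entries in its window and none in the IDR list. The highest, 32.0, lay in intron 2, and another of 27.5 lay 11 bp from the start with a −log10 q-value of 0.88. The highest signal value in the window was 25.3 in replicate 2 and 16.1 in replicate 1, and these lay at different places, 1587 and 159 bp from the start. An IDR region of signal value 218.3, chrIII:11243375-11243774, sat 1545 bp upstream, beyond the window, and rsks-1 was the gene with the nearest 5′ end to it. A limit of 2000 bp upstream would count it for rsks-1.

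The genes for the catalytic alpha subunits of AMPK were at opposite ends of the set. aak-2 (WBGene00020142, chrX:16796087-16803398, plus strand), the subunit known for starvation survival and lifespan in worms, held the strongest region of any member and was alone in having 2. The stronger, chrX:16796851-16797215, had a signal value of 597.2 and ranked 353 of 4087. Its signal value was 386.3 in replicate 2 and 209.8 in replicate 1. The summit was in intron 1 of the long transcripts, 937 bp inside the gene, so it is not among the 5′ end calls. The weaker, chrX:16799168-16799271, had a signal value of 231.7. Replicate 2 gave that region 146.3 and replicate 1 gave it 92.7. Its summit was also in that intron, 438 bp upstream of the start of the short transcript T01C8.1c.1, which begins 3620 bp inside the gene. No IDR region lay at the starts of the long transcripts, where the pooled list held entries of 37.3, 16.0 and 16.4 within 1000 bp upstream. aak-1 (WBGene00019801, chrIII:8756990-8761090, minus strand), the other catalytic subunit, was the one member with no entry in its window in the pooled list or in either replicate's list.

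**Figure D2:**
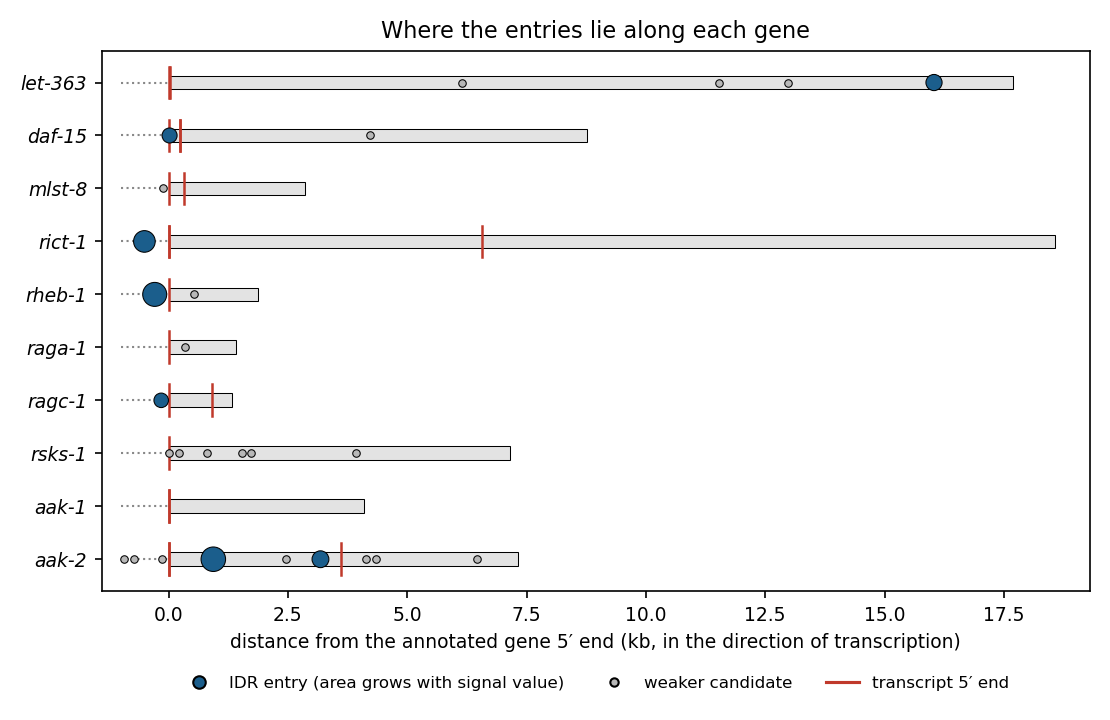
Position of the pooled entries along each gene, in kb from the annotated gene 5′ end in the direction of transcription. Grey bars are genes, dotted lines the 1000 bp upstream, red lines transcript 5′ ends, blue circles IDR entries with area growing with signal value, and small grey circles weaker candidates. The blue circles of rict-1, rheb-1 and ragc-1 sit upstream of the gene, those of aak-2 inside it, and that of let-363 at 16.04 kb.

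The map of entries along the genes shows 3 arrangements among the 7 IDR regions. The regions of rict-1, rheb-1 and ragc-1 lay upstream, between divergent genes. Those of daf-15 and the weaker one of aak-2 had the 5′ ends of a single gene within reach. The let-363 region and the stronger aak-2 region were intronic and away from starts. Of the members' 5 regions at 5′ ends, 3 had 5′ ends on both strands within reach, against 746 of 2555 regions at 5′ ends over the genome (29.2%). For these 3 the region cannot be assigned to one gene of the pair from position alone. Because chromatin came from whole animals, strong occupancy in a few cells and weak occupancy in many cannot be told apart.

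**Figure D3:**
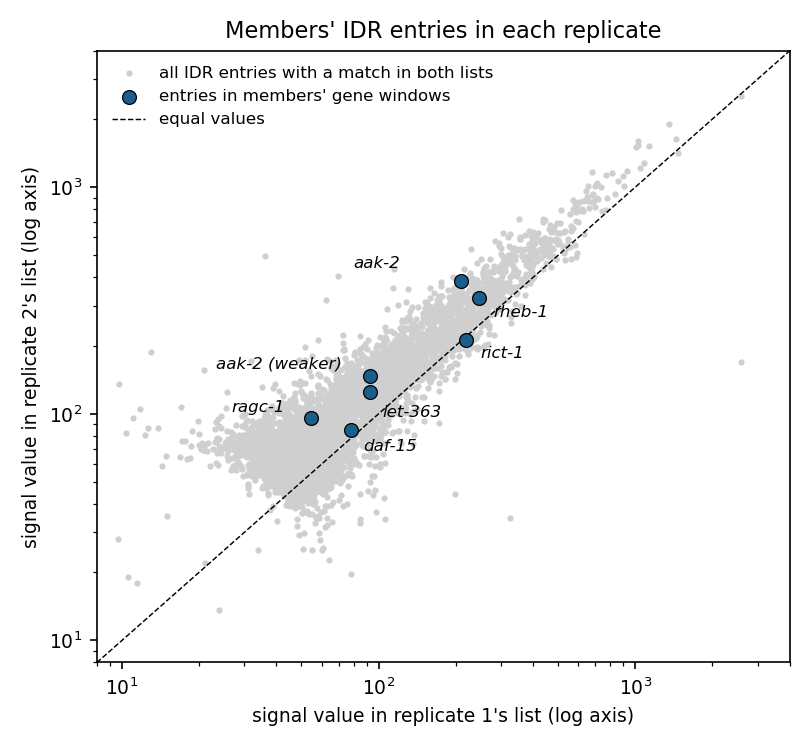
Signal value in replicate 2 against replicate 1 for the IDR entries matched in both lists, on log axes in the caller's units. Blue points are the 7 entries in the gene windows of the TOR and AMPK genes, grey points all matched entries, and the dashed line equal values. Of the 7 blue points, 6 lie above the line, as most grey points do.

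The plot of replicate 2 against replicate 1 shows that the members' regions lay inside the spread of the list. Replicate 2 ran higher over the whole list, with a median log2 ratio of replicate 2 over replicate 1 of 0.44 (SD 0.49, 4077 matched regions). The members' log2 ratios ran between -0.04 at rict-1 and 0.88 at the stronger aak-2 region, with a median of 0.43, and all were between the 5th and 95th percentiles of the list, -0.27 and 1.27. All 7 were among the strongest 4087 entries of each replicate. The IDR step selects regions by their rank in both replicates, so this was largely set by that selection and adds no separate support. The order of the strongest differed: replicate 2 had the stronger aak-2 region first, then rheb-1 and rict-1, whereas replicate 1 had rheb-1 first, then rict-1 and aak-2. The order of these 3 was thus not settled by the 2 replicates. The summits of the replicates were at most 30 bp apart, and those of rheb-1 were closest. The strongest IDR signal value per gene had a median of 325.1 over the 6 members with a region, against 222.1 over the 3501 genes with one. The members' windows were longer, which gives more room for a strong region, and the difference was not tested. Of the members' strongest regions, those of let-363, rict-1 and rheb-1 were nearer to another gene's 5′ end.

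Beyond the 10 members, a list of 40 further genes of the same pathways was examined, of which 39 were in the annotation. An IDR region lay at a 5′ end of 13 of these (33.3%) against 15.9% of all genes, and with the nearest 5′ end alone at 10 (25.6%) against 11.9%. Among AMPK beta and gamma subunits, 2 of 7 had one. These were aakg-5 with a signal value of 560.5, 49 bp upstream, and aakb-2 with 231.4, nearer to Y47D3A.14. On the amino acid and lysosome side, 2 of 7 had one: lmtr-3, a Ragulator subunit gene, with 254.1 and flcn-1, the folliculin gene, with 223.9. The Sestrin gene sesn-1 and the GATOR1 genes nprl-2 and nprl-3 had none. The genes par-4 and strd-1 of the LKB1 complex, which activates AMPK, had none either, and neither did the 4 genes of the TORC2 side and its AGC kinases.

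Downstream of the kinases, translation control had 3 of 7, or 2 of 7 with the nearest 5′ end alone, since the ifg-1 region was nearer to M110.3. Among them was ife-2, which encodes an eIF4E, with a signal value of 308.4. Roles hold few genes each, so these counts are set against the 15.9% of all genes as descriptions only. Of the transcription regulators, 3 of 5 had one. These were crh-1, the CREB gene, with 443.0, hlh-30, the TFEB gene, with a highest of 243.4 over 3 regions, and skn-1, the Nrf gene, with 131.4. Of the autophagy genes, lgg-1, which encodes the ATG8 homologue, had 749.1, above any of the 10 members, with its summit 882 bp upstream. unc-51 and bec-1, which act earlier in autophagy, had none. Among the rest, atx-2 had 2 regions, the stronger of 575.6 at a summit nearer to ecps-1 and the other with atx-2 as its nearest. The gene slc-36.1, for a putative amino acid transporter, had 195.3 at a summit nearer to klp-19. The genes with no region at a 5′ end included 4 with pooled entries of 52.5 to 83.8 in the window, efk-1, aakg-3, aakg-4 and ife-3, which were above every weak entry of the members and below the IDR minimum.

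**Figure D4:**
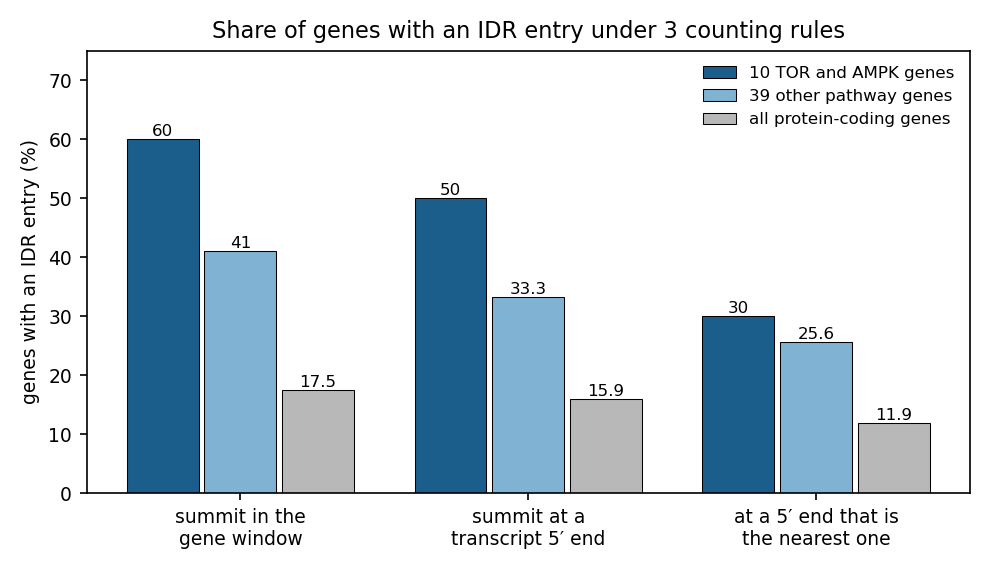
Share of genes with an IDR entry under 3 counting rules, in percent, for the 10 TOR and AMPK genes (dark blue), the 39 further pathway genes (light blue) and all 19973 protein-coding genes (grey). The dark bars fall between the gene window rule and the nearest 5′ end rule, 60.0% under the first and 3 of 10 genes under the last, and each stands above the grey bar of 17.5%, 15.9% or 11.9%.

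The bars of shares by counting rule show the order of members, further pathway genes and all genes under each rule, with values of 60.0%, 41.0% and 17.5% for the gene window. The distance between members and further pathway genes was not tested.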

How the data were processed

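The labels describe ChIP-seq of tagged SWSN-7 in 2 biological replicates of 1 group. Per the deposited readme, the authors mapped reads to ce10 and ce11, listed candidates of each replicate and of the pool, and derived the IDR list. Names of aligner and caller were not given in the sources used here. Deposited files hold the caller's signal value, comparable within a list, and a −log10 q-value, per region. Read depth is unknown, so no interval that needs it is given. Control chromatin was not analysed here. The ce10 lists served for a count of entries alone.

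Positions are 1-based on ce11 (WBcel235) with Ensembl release 115 gene models. Summits were assigned to gene windows and 5′ end windows with Python 3.11.15, pandas 2.3.3 and numpy 2.4.6, and the assignment was tested on simulated data. Replicate entries were matched to IDR regions by an overlap of at least 1 bp. Shares over members were set beside the same shares over all 19973 protein-coding genes, with no test. Genes named beyond the members were the neighbours of their regions and genes of the pathway list. The members and lists were chosen with earlier results of these data known. Alternatives were the strongest 2043 IDR entries, the strongest pooled entries, each replicate alone, overlap in place of summits, merged entries, gene bodies alone, 5′ windows of 300 bp on each side or 2000 bp upstream, nearest 5′ end alone, and motif windows of 100 bp on each side.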

Additional observations from a re-analysis of the deposited data

How the results depend on the processing

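Members with an IDR region in the gene window numbered 6, and 3 with gene bodies alone or with the nearest 5′ end alone (4.43% and 13.0% of all genes). With the strongest 2043 IDR entries there were 4, let-363, rict-1, aak-2 and rheb-1 (10.5%). Members with one at a 5′ end numbered 5, and 3 with the strongest 2043 IDR entries (9.56% of all genes), with 300 bp on each side (10.1%) or with the nearest 5′ end alone (11.9%). These 3 were not the same genes: rict-1, aak-2 and rheb-1, then daf-15, ragc-1 and rheb-1, then daf-15, aak-2 and ragc-1. Regions in members' windows numbered 7, and 4 with gene bodies alone or with the nearest 5′ end alone. With 2000 bp upstream, 7 members had a region by the gene window rule (21.3% of all genes) and 7 by the 5′ end rule (20.0%), and 20 further pathway genes had one in place of 13, against the same 20.0%. Each replicate alone, the strongest pooled entries, and overlap in place of summits each gave 6 and 5 members, the same genes. So did the strongest pooled entries in the number of the ce10 list (5112), chosen after seeing the data. Over these alternatives the share of all genes ran between 17.3% and 20.3% by the gene window and between 15.6% and 18.3% at a 5′ end. IDR regions were selected by rank in both replicates, so each replicate alone is not an independent check. No paired analysis was possible because there is 1 group and no result came from a test. Unknown depth and 2 replicates limit any statement that a gene lacks SWSN-7.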

Other observations

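Some pathway genes had IDR regions inside the gene and none at a 5′ end. aakg-1, an AMPK gamma subunit gene, had 3 with a highest signal value of 400.9, pdk-1, the PDK1 kinase gene, had 1 with 257.6, and pkc-2, a protein kinase C gene, had 1 with 138.7. The gene window of skn-1 held 3 regions with a highest signal value of 387.1, above the 131.4 at its 5′ end, and that of hlh-30 held 5. Of the genes upstream of aak-1, rsks-1 and raga-1, mig-22, upstream of aak-1, had an IDR region at a 5′ end with a signal value of 215.5, and so had aakb-2, upstream of rsks-1, with 231.4, whereas saps-1, upstream of raga-1, had none.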
